A study of Mus musculus with 6 samples.

Results

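The genes described here encode the DNA damage and replication checkpoint kinases with their nearest partners: Atr, Atrip, Topbp1, Clspn, Hus1 and Chek1 of the ATR-CHK1 arm, Atm and Chek2 of the ATM-CHK2 arm, and the CDK-inhibitory kinases Wee1 and Pkmyt1. They were chosen by symbol, and each of the 10 matched 1 row among the 55487 genes of the deposited table. RNA-seq had been done on YFP-positive cells sorted from the subventricular zone of adult mice, the stem cell niche beside the lateral ventricles. All mice carried NestinCreERT2, a tamoxifen-inducible Cre under Nestin control, and the R26;EYFP reporter, on a mixed C57BL/6;Sv/129 background, and they were 6 to 10 weeks old when treatment began. The control genotype, THC, was Rb(F/+);p107(+/-);p130(F/+), and TKO was Rb(F/F);p107(-/-);p130(F/F). Both genotypes received tamoxifen at 200 mg/kg per day for 5 days, and the niche was dissected 10 days after tamoxifen ended. Each of the 3 THC and 3 TKO samples pooled several mice to reach at least 200000 sorted cells, and 1 sample per genotype belonged to a batch labelled February and 2 to a batch labelled November. The p107 allele is not floxed, so its loss did not depend on Cre, and the controls were themselves heterozygous at all of these loci.

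ATR and ATM are large protein kinases of the PI3K-related family that start the checkpoint response. ATR, bound to ATRIP, is recruited to single-stranded DNA at stalled forks and is activated there by TOPBP1, which the HUS1-containing 9-1-1 clamp brings in; claspin then presents CHK1 to ATR. ATM responds mainly to double-strand breaks and activates CHK2. Both effector kinases restrain the CDC25 phosphatases, and WEE1 and MYT1 (encoded by Pkmyt1) hold CDK1 inactive by phosphorylating it, so that cells do not divide with damaged or unfinished DNA. The retinoblastoma family proteins pRb, p107 and p130, whose genes are targeted in TKO, are known for restraining E2F-driven transcription of S-phase genes.

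Because the genotypes differ in the E2F-binding retinoblastoma family, the start-site regions of these genes were searched for the core of the E2F motif. RefSeq windows of 300 bases (250 before to 50 after the start, GRCm38.p6) were found for 8 of the 10 genes. Wee1 and Pkmyt1 had no window and were not searched. The words searched, on both strands, were TTCCCGC as the first, TTGGCGC as the second, TTCGCGC as the third and finally TTGCCGC. At least 1 of them was present in 9.57% of all 32851 windows and in 5 of the 8 windows of these genes. The matches are given in capitals within 30 bases, 5′ to 3′ on the strand of the gene, because they mark which of the checkpoint genes carry the core near their start.
Chek1: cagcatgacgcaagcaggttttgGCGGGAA
Clspn: taccgcgtctggGCGCGAAagctcgaactt
Topbp1: gtccgctcggTTGGCGCGAAagtcggttcc
Chek2: gcgggattagccGCGGGAAaccaagacgtc
Atm: atagagccggaaGCGGGAAggcgtgcgtac

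The Chek1 stretch lies at chr9:36726609-36726638 (minus strand), with the match at bases 44 to 50 after the start. The Clspn stretch lies at chr4:126556989-126557018 (plus strand), with the match at bases 22 to 28. In Topbp1, at chr9:103305185-103305214 (plus strand), 2 overlapping words fill 10 bases from -132 to -123. The Chek2 match lies at bases -152 to -146 (chr5:110839819-110839848, plus strand), and the Atm match at bases 16 to 22 (chr9:53536639-53536668, minus strand). The windows of Atr, Atrip and Hus1 held none of these letters. The cell cycle element CHR (TTTGAA or TTCGAA, both strands) was found in 2 of the 8 windows, those of Atr and Hus1, and in 19.2% of all windows. The CCAAT box, both strands, was found in 4 of the 8, those of Atm, Atrip, Chek2 and Clspn, and in 37.4% of all. A match of this kind is a description of the sequence and not evidence of a bound site.

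In TKO, 8 of the 10 genes were higher and none was lower, and Atrip and Hus1 did not pass the test. The mediators Clspn and Topbp1, the effector Chek1 and the CDK-inhibitory kinases Wee1 and Pkmyt1 rose by 1.52 to 1.78 on the log2 scale, and Chek2 rose by 1.20. The apical kinase genes Atm and Atr rose by 0.67 and 0.45. Values are normalized counts, which are reads per gene divided by 1 factor per library; log2 changes are TKO minus THC on log2(normalized count + 1), and genes with a limma adjusted p under 0.05 were called, from a fit with batch as a covariate and Benjamini-Hochberg adjustment over 17278 genes. Of all genes tested, 14.3% were called higher and 13.6% lower, and the median log2 change was -0.00032 over all genes and 1.36 over these 10. For the 8 genes called, every TKO library lay above every THC library, a pattern that 19.4% of all genes tested showed, and none had every TKO library below every THC library, as 19.5% of all genes did. In the authors' deposited table the same 8 genes were higher at an adjusted p under 0.05, where 7.68% of the 32018 genes with an adjusted p were. That larger set takes in genes with counts too low to be among the 17278, so its share has another base than the 14.3%.

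**Figure D1:**
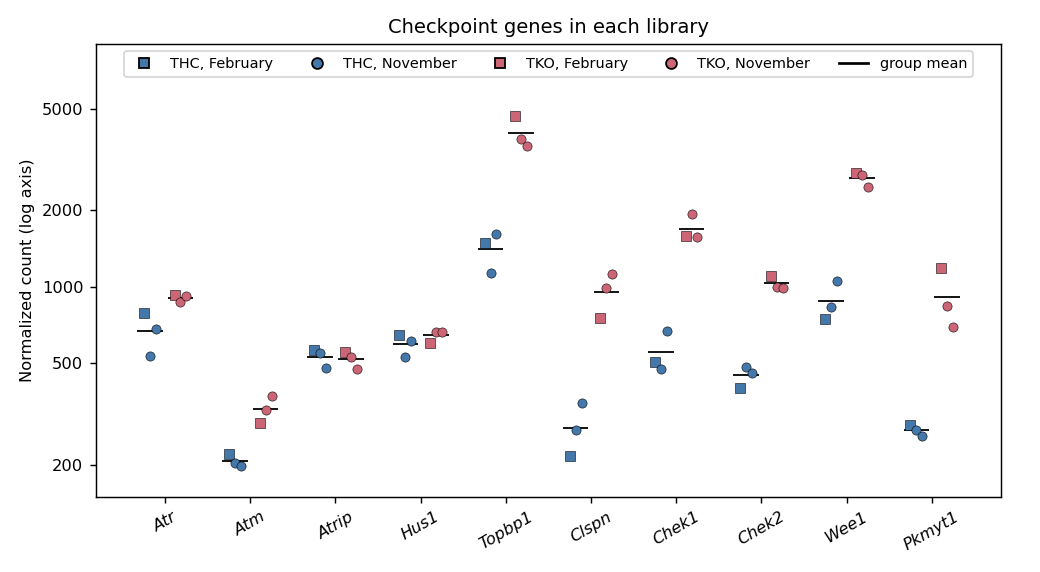
Normalized counts (log axis) of the 10 checkpoint genes in each of the 3 THC and 3 TKO libraries, with squares for February, circles for November and lines for group means. The groups overlap for Atrip and Hus1 and are separate for the other genes. For Atr the highest THC library reached 793 and the lowest TKO library 875, and for Topbp1 these were 1616 and 3576.

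Depth and the genotype labels were examined across the libraries. Between 15536084 and 16961817 reads were assigned to genes per library, and a normalized count of at least 10 was found for 16858 to 17513 genes. Rbl1, the gene of p107, was at 554 ± 80.5 (SD, n = 3) in THC and 24.9 ± 14.9 in TKO, and fell by 4.56 on the log2 scale (SE 0.31, limma adjusted p = 2.3e-06). Rb1 was at 1849 ± 199 and 3267 ± 355 and Rbl2 at 1042 ± 202 and 939.5 ± 32.9, counted over whole genes, so that they do not check the deletion. Marker sums were compared for 10 lists of 53 genes, none of which was at 0 in all libraries. Neural stem cell and astrocyte markers (Sox2, Nes, Slc1a3, Gfap, Aldoc and Hes5) summed to 86989 to 149975 in THC and 94620 to 125097 in TKO; Gfap rose by 2.01 and Nes by 1.21, Aldoc fell by 2.35, and the other three were not called. All 8 proliferation markers rose, from a sum of 24545 to 38066 in THC to 77320 to 89296 in TKO (2.70-fold between means), with a median log2 change of 1.35. All 6 mature oligodendrocyte markers fell, from a sum of 74698 to 84721 to one of 12059 to 21383, as did 5 of 6 endothelial, 3 of 4 mural, 3 of 4 neuron, 3 of 4 neuroblast and 3 of 4 ependymal markers, and 3 of 8 microglia markers rose. The ependymal markers had overlapping groups, with a median log2 change of -1.44 in November but 0.18 in the February pair. Their February sum was 2993 in THC and 3837 in TKO. The groups overlapped for the microglia markers as well, which summed to 939 to 4035 in THC and 1283 to 5981 in TKO. In each genotype the highest microglia sum was that of the February library. None of the 3 oligodendrocyte progenitor markers was called, and their median log2 change was -0.48 in the February pair and 0.61 in November. In such bulk samples, fewer cells of a type and less RNA per cell cannot be told apart. The part of these other cells and of the share of dividing cells in the checkpoint gene changes was not tested.

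The apical kinases differed least among the genes that were called. Atr (chromosome 9, 95857597 to 95951781, GRCm38) had normalized counts of 793, 535 and 681 in THC replicates 1, 2 and 3 and 925, 875 and 919 in TKO replicates 1, 2 and 3. Every TKO library was above the highest THC library, THC 1, by a small margin. The group values were 669.7 ± 129 and 906 ± 27.6 (SD, n = 3 each), a log2 change of 0.45 (SE 0.14, limma adjusted p = 0.035), with 0.22 in the February pair and 0.57 in November. The call for Atr ended in 6 of 16 other settings, among them without THC 2 (0.32, adjusted p = 0.14), without TKO 2 (adjusted p = 0.10) and without TKO 3 (adjusted p = 0.13). Reads on its exons cannot be told apart from those of the antisense genes 1700065D16Rik and Gm16794, which overlap 3.07% and 1.96% of their length. Atm (chromosome 9, 53439149 to 53536740) was at 221, 203 and 198 in THC and at 292, 329 and 371 in TKO. The lowest TKO library, TKO 1, was still above all THC libraries. Atm rose by 0.67 (SE 0.18, limma adjusted p = 0.015), and the batches gave 0.40 (February) and 0.80 (November). It did not pass without TKO 3 (0.58, adjusted p = 0.080).

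Atrip, whose product places ATR on DNA, and Hus1, a subunit gene of the separately loaded 9-1-1 clamp, were not called. Atrip (chromosome 9, 109057933 to 109074124) was at 563, 552 and 481 in THC and at 553, 532 and 475 in TKO. The libraries of the genotypes interleaved. The means were 532 ± 44.7 and 520.2 ± 40.4 (SD, n = 3 each), and the log2 change was -0.03 (SE 0.14, limma adjusted p = 0.90), with -0.03 in each batch. Hus1 (chromosome 11, 8993137 to 9011191) was at 649, 529.8 and 611 in THC and at 604, 665 and 666 in TKO, so that TKO 1 fell between THC values. Its log2 change was 0.12 (SE 0.14, limma adjusted p = 0.59). The merged exons of Atrip overlap those of Trex1, a neighbouring exonuclease gene on the same strand, over 16.0% of their length, and reads there cannot be assigned with certainty.

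The mediators that activate ATR and hand CHK1 to it rose strongly. Topbp1 (chromosome 9, 103305215 to 103350428), the ATR activator, was at 1491, 1130.4 and 1616 in THC and at 4689.5, 3819 and 3576 in TKO. All TKO libraries were more than 2-fold above the highest THC library. It rose by 1.52 (SE 0.15, limma adjusted p = 1.6e-05; February 1.65, November 1.45). Clspn (chromosome 4, 126556935 to 126593903), which encodes claspin, was at 216, 274 and 350.4 in THC and at 754, 989.8 and 1125 in TKO. The February library was the lowest of its genotype in both groups. Clspn rose by 1.78 (SE 0.15, limma adjusted p = 6.9e-06; February 1.80, November 1.76), and 2.96% of all genes tested rose more.

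Both effector kinases rose. Chek1 (chromosome 9, 36708482 to 36727065) was at 508, 475 and 674 in THC and at 1583, 1930.2 and 1572 in TKO. THC 3 was the highest control library and TKO 2 the highest TKO library, and the groups were far apart. The means of 552 ± 106 and 1695 ± 204 (SD, n = 3 each) differ 3.07-fold, and the log2 change was 1.63 (SE 0.15, limma adjusted p = 1.4e-05; February 1.64, November 1.62). Chek2 (chromosome 5, 110839979 to 110874145) was at 402, 484 and 461 in THC and at 1106, 1002 and 994 in TKO. The TKO libraries lay close together and above every control. Its means differ 2.30-fold, and it rose by 1.20 (SE 0.14, limma adjusted p = 5.2e-05; February 1.46, November 1.08).

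The kinases that inhibit CDK1 rose with the effectors. Wee1 (chromosome 7, 110122046 to 110143286), the nuclear kinase, was at 749, 836 and 1053 in THC and at 2795, 2745 and 2464 in TKO. It rose by 1.61 (SE 0.14, limma adjusted p = 8.8e-06; February 1.90, November 1.47). Pkmyt1 (chromosome 17, 23726336 to 23736735), whose product is bound to membranes, was at 286, 275 and 259.5 in THC and at 1191, 841 and 698 in TKO. The THC libraries were nearly equal, whereas TKO 1 stood above the other TKO libraries. Pkmyt1 rose by 1.70 (SE 0.16, limma adjusted p = 1.5e-05; February 2.06, November 1.52). Its merged exons overlap those of the opposite-strand gene Paqr4 over 8.76% of their length, and the library chemistry does not keep the strand.

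**Figure D2:**
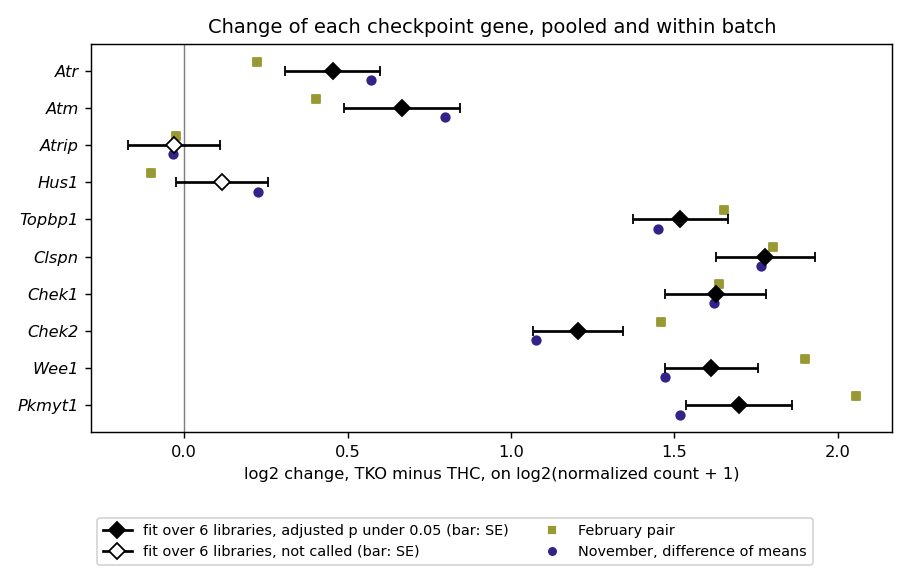
Log2 change (TKO minus THC) of each checkpoint gene from the fit over 6 libraries (diamonds, bars 1 SE, filled where called), with the February pair (squares) and the November difference of means (circles). Atr and Atm lie at 0.45 and 0.67, Atrip and Hus1 near 0, and the 6 other genes between 1.20 and 1.78, and the Hus1 batches fall on opposite sides of 0.

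The arms were then compared within libraries, by ratios that do not depend on how libraries were scaled. Of the 6 ATR-CHK1 genes 4 were higher, with a median log2 change of 0.99, and both ATM-CHK2 genes were higher, with a median of 0.94. The ATR-CHK1 median lies in a gap between Atr (0.45) and Topbp1 (1.52). The ATM-CHK2 median is the midpoint of Atm (0.67) and Chek2 (1.20). The ratio of Chek1 to Chek2 was 1.26, 0.98 and 1.46 in THC and 1.43, 1.93 and 1.58 in TKO. TKO 1 lay within the range of the controls. The log2 ratio differed by 0.42 between group means (THC 0.29 ± 0.29, TKO 0.71 ± 0.22, SD, n = 3 per genotype, exact two-sided permutation test, p = 0.20, adjusted over 2 ratios p = 0.30; February 0.18, November 0.54). The ratio of Atr to Atm was 3.60, 2.64 and 3.44 in THC and 3.17, 2.66 and 2.48 in TKO, and the groups overlapped. Its log2 difference was -0.21 (exact two-sided permutation test, n = 3 each, p = 0.30, adjusted p = 0.30; February -0.18, November -0.23). Leaving out 1 library moved these differences by over 1.5 times: Chek1 to Chek2 was at 0.27 without THC 2, and Atr to Atm at -0.35 without THC 2, -0.13 without THC 1 and -0.14 without TKO 3. With 3 samples against 3 the smallest p this test can give is 0.10, so these values do not show that the arms changed alike, and a difference between the arms was not detected.

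Within each arm the effector kinase was set against its apical kinase, a comparison added after the values had been seen. Its p-values were adjusted over these 2 ratios alone, without the 2 ratios between the arms. The ratio of Chek1 to Atr was 0.64, 0.89 and 0.99 in THC and 1.71, 2.21 and 1.71 in TKO. The groups did not overlap. These are ratios of counts of transcripts of unequal length, and per kb of transcript Chek1 was above Atr in both genotypes (145 and 82.7 in THC, 446 and 112 in TKO). The log2 ratio differed by 1.17 (exact two-sided permutation test, n = 3 each, p = 0.10, the smallest it can give, adjusted p = 0.10; February 1.41, November 1.05). The ratio of Chek2 to Atm was 1.82, 2.39 and 2.33 in THC and 3.79, 3.05 and 2.68 in TKO, and again the groups did not overlap. This difference was 0.54 (exact two-sided permutation test, n = 3 each, p = 0.10, adjusted p = 0.10), and it was 1.06 in the February pair and 0.28 in November.

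**Figure D3:**
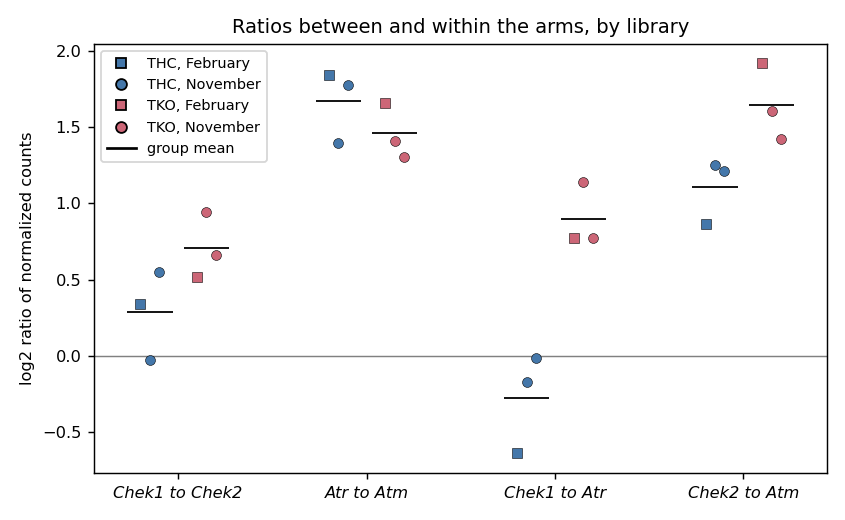
Log2 ratio of normalized counts for 4 gene pairs in each library (squares February, circles November, lines group means). The Chek1 to Chek2 and Atr to Atm ratios overlap between THC and TKO, and the Chek1 to Atr and Chek2 to Atm ratios are higher in each TKO library than in every THC library.

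Levels of the 10 genes were compared per kb of the transcript with the longest coding sequence. In THC, Topbp1 (270.3 ± 48.2 normalized counts per kb, SD, n = 3) and Wee1 (257 ± 45.9) were highest, followed by Atrip (207 ± 17.4), Chek2 (197 ± 18.7), Chek1 (145 ± 28.0), Pkmyt1 (134 ± 6.43) and Hus1 (129 ± 13.1). The ranges of each pair of neighbours in that order overlapped. Atr (82.7 ± 15.9) and Clspn (55.7 ± 13.5) were lower and overlapped with each other, and Atm (21.2 ± 1.21) lay below all others. In TKO the order of levels per kb was Wee1 (780.3 ± 52.2) and Topbp1 (771 ± 112), which overlapped, then Chek2 (454 ± 27.5), Chek1 (446 ± 53.6) and Pkmyt1 (446 ± 124), which overlapped as well. Atrip (202 ± 15.7), Clspn (190.3 ± 37.3), Hus1 (139 ± 7.68), Atr (112 ± 3.41) and Atm (33.8 ± 4.04) followed, and only Atrip and Clspn overlapped among these neighbours. Atm thus had the lowest level per kb in both genotypes. The order depends on the length used: per kb of all merged exons, Atrip was at 74.4 and Atr at 28.3 in THC, below Pkmyt1 (75.0) and Clspn (39.0). By that length Topbp1 was at 126 in THC, below Wee1 (257) and Chek2 (150). Its range overlapped that of Chek2 but not that of Wee1. In TKO, Topbp1 was at 359 by that length, below Wee1 (780), again without overlap.

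The wider checkpoint pathway was examined through 7 lists with 50 genes, of which 49 passed the filter on low values. Of these, 31 were higher and 2 were lower in TKO, with a median log2 change of 0.83. The share of genes called higher over all genes tested was 14.3%. Among the RPA, ETAA1 and fork protection genes, 7 of 8 were higher (median 1.04). Timeless and Tipin, which form a fork protection complex with claspin, rose by 1.24 (SE 0.12) and 1.19 (SE 0.14), with limma adjusted p of 1.6e-05 and 6.3e-05. Wdhd1, a replisome scaffold, rose by 1.30 (SE 0.13, adjusted p = 1.7e-05), and Smarcal1, a fork-remodelling enzyme, was at -0.18 (adjusted p = 0.40). Of 9 measured genes of the 9-1-1 clamp and its loader, 6 were higher (median 0.68). The clamp-loader subunits Rfc3, Rfc4 and Rfc5, which also serve replication, rose by 1.19 (SE 0.13), 1.40 (SE 0.19) and 1.21 (SE 0.17), at adjusted p of 4.3e-05 for Rfc3 and 0.00023 for the other two. The clamp subunit gene Rad1 was at 0.24 (adjusted p = 0.28), and Rad9a, of the same clamp, rose by 0.53 (adjusted p = 0.0080).

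Genes that act at double-strand breaks, upstream and downstream of ATM, were higher in 7 of 11 cases (median 0.74). H2ax, the histone that ATM phosphorylates at breaks, rose by 1.72 (SE 0.15, limma adjusted p = 9.3e-06), and Mdc1, which binds the phosphorylated form, rose by 1.80 (SE 0.19, adjusted p = 2.6e-05). The ubiquitin ligase gene Rnf168 rose by 1.32 (SE 0.16, adjusted p = 8.6e-05), whereas Rnf8, which acts before it, was at 0.08 (adjusted p = 0.74). Of the 4 other PI3K-related kinases none was higher. Trrap, a pseudokinase of that family, fell by 0.38 (SE 0.13, adjusted p = 0.046), a call that ended in 9 of 16 other settings, and Mtor was at -0.15 (adjusted p = 0.50).

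Targets of the checkpoint kinases and genes that end the response were examined next. Of the CDC25 phosphatases, the CDKs they activate and cyclin B1, 5 of 6 genes were higher (median 1.25). Cdc25c rose by 1.51 (SE 0.14, limma adjusted p = 1.2e-05), Cdk2 by 1.31 (SE 0.13, adjusted p = 2.1e-05). Cdk1, the target of WEE1 and MYT1, rose by 1.67 (SE 0.17, adjusted p = 2.7e-05), and Cdc25a, whose protein CHK1 marks for destruction, was at 0.27 (adjusted p = 0.18). Of 7 recovery genes, 4 were higher and 1 was lower (median 0.91). Bora, which helps to activate the mitotic kinase PLK1, rose by 1.41 (SE 0.16, adjusted p = 6.1e-05), the phosphatase gene Ppm1d by 0.91 (SE 0.14, adjusted p = 0.00060). Aurka, a mitotic kinase gene, rose by 0.94 (SE 0.15, adjusted p = 0.00071). Btrc, a ubiquitin ligase subunit through which WEE1 and claspin are degraded, fell by 0.52 (SE 0.13, adjusted p = 0.0092), and its paralogue Fbxw11 was at -0.05 (adjusted p = 0.84). In the p53 node, 2 of 4 genes were higher. They were the p53 targets Cdkn1a and Mdm2, which rose by 2.49 (SE 0.14) and 0.95 (SE 0.14), at adjusted p of 9.5e-07 and 0.00032. The p53 inhibitor gene Mdm4 was at 0.07 (adjusted p = 0.76).

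**Figure D4:**
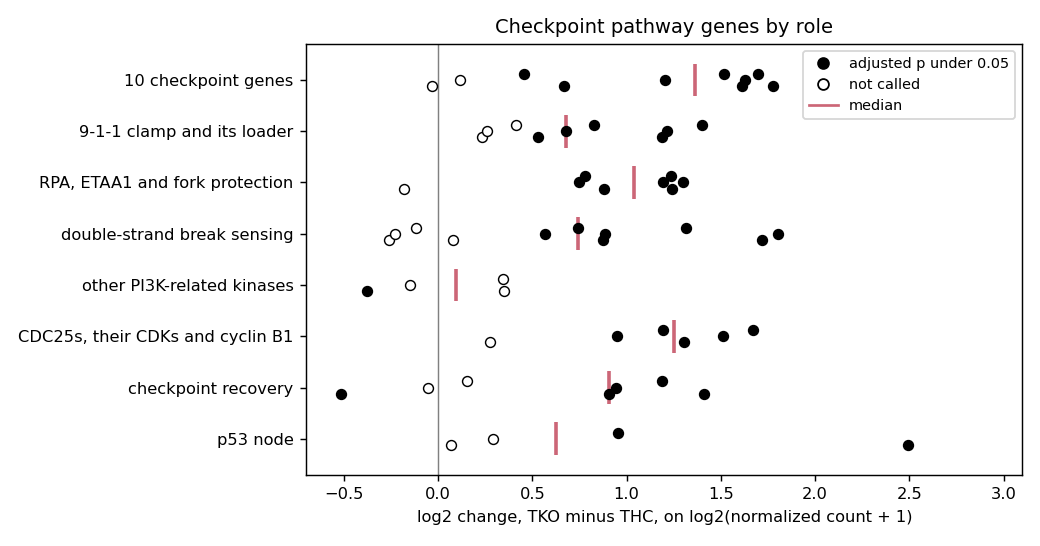
Log2 change (TKO minus THC) of the 10 checkpoint genes and of the 49 other pathway genes tested, by role (filled where adjusted p was under 0.05, red lines medians). Filled points lie to the right of 0 except for Trrap and Btrc, and the list of other PI3K-related kinases has its median at 0.10.

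Genes with profiles most like those of Chek1 and Atm were named by the Euclidean distance between centred log2 profiles over the 6 libraries, among the 17278 genes tested. Nearest to Chek1 were Sgo1, which protects cohesion at centromeres (distance 0.07, log2 change 1.65), Cdc45, a subunit of the replicative helicase (0.16, log2 change 1.61), and Dlgap5, a spindle protein gene (0.18, log2 change 1.53). Nearest to Atm were Caprin2 (0.13, log2 change 0.70) and Malsu1 (0.13, log2 change 0.60). Mki67, the proliferation marker Ki-67, was at 3513 ± 579 (THC) and 12076 ± 1717 (TKO; SD, n = 3 per genotype), a log2 change of 1.78 (SE 0.15, limma adjusted p = 7.1e-06), beside 1.78 for Clspn and 1.63 for Chek1.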

How the data were processed

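Total RNA of sorted cells was made into SMART-Seq v4 and Nextera XT libraries, per the labels' protocols. The submitters' processing notes name HISAT2, featureCounts of Subread, DESeq2 and GRCm38; the sources used here name no versions, annotation or read filters. The authors' deposited table holds, per library, a normalized count, a signal equal to whole reads divided by 1 factor per library (100% of values within 0.001 of a read), from which reads per library were obtained. Per the file headers, the deposited table also gives log2 fold changes with SE, a test score, p-values and weights, a score of hypothesis weighting.

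Genes at a normalized count of at least 10 in at least 3 samples (17278) were fitted with limma 3.58.1 (R 4.3.3) on log2(value + 1), with an intensity trend, batch and genotype. The test was checked on simulated data. Means ± SD are over the 3 samples of a genotype, and p-values compare these pooled samples. In limma the spread used for a gene is mostly drawn from other genes (8.9 prior against 3 residual degrees of freedom). Spans and lengths came from GENCODE M21 and start-site windows from RefSeq. The members and lists were chosen with earlier results of these data known. The named pathway genes were up to 3 called genes per list with the smallest adjusted p and the uncalled gene with the largest. Rad9a and Btrc were named outside this rule. Trrap and Btrc are the only pathway genes that were lower. One listed gene was matched by its other symbol (H2ax). Other pseudocounts, filters, scalings, batch terms and left-out libraries were tried. The 3 genes nearest in profile to Chek1 and to Atm were taken, and 1 of them is not reported here.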

Additional observations from a re-analysis of the deposited data

Results flagged for a closer look

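Hus1, which was not called, had values of opposite sign in the batches. In the February pair its log2 difference (TKO minus THC) was -0.10, and in November it was 0.23, with both TKO libraries above both THC libraries. The difference between the batches was not tested.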

How the results depend on the processing

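Of 160 values of the 10 genes under other settings, 151 kept their direction and side of the threshold, 7 were no longer called, and 2 changed sign without a call: Atrip was at -0.031 over all libraries and at -0.087 to 0.026 when 1 library was left out, above 0 without THC 2 (0.026) and without TKO 3 (0.016). These settings are not independent. Changing the filter or batch term, or adding the replicate block, cannot move a log2 change, only its adjusted p. November only, without THC 1 and without TKO 1 share the same log2 change. Atr was not called with no low-count filter (adjusted p = 0.062), with no batch term (0.067), with a replicate block (0.0555) and without THC 2, TKO 2 or TKO 3, and Atm was not called without TKO 3; the cause was not tested. The count of the 10 genes called higher was 6 to 8 when 1 library was left out, and 6 without TKO 3. Same-numbered samples correlated at 0.23, -0.11 and 0.14 in their deviations from the genotype means. They share a number and a batch label, and beyond these they were not shown to be pairs. The replicate block gave 7 of the 10 genes higher and 2147 higher and 1922 lower genes in all. Of the other pathway genes, 30 to 31 were higher in every setting, and 1 was lower, Btrc, with no low-count filter, no batch term, the replicate block, November only, or without any 1 of THC 1, THC 2 and the 3 TKO libraries. Over all genes, 1890.0 to 2538 were higher and 1637 to 2399 lower. Leaving out 1 library, the difference in the log2 ratio was 0.27 to 0.55 for Chek1 to Chek2, -0.35 to -0.13 for Atr to Atm, 0.99 to 1.30 for Chek1 to Atr and 0.40 to 0.65 for Chek2 to Atm. The replicate block cannot move these differences, which stay at 0.42, -0.21, 1.17 and 0.54. The planned count-based tests were not run.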

Other observations

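The spread between TKO libraries differed from gene to gene. Pkmyt1 had a coefficient of variation of 4.80% in THC and 27.8% in TKO, where TKO 1 was at 1191 and the November libraries at 841 and 698. Clspn had its lowest TKO value, 754, in that same library, against 989.8 and 1125 in November. Atr went the other way, with a coefficient of variation of 19.3% in THC and 3.04% in TKO. With 3 libraries per genotype these spreads were not tested.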
